A study of Homo sapiens with 6 samples.

Results

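Human chromosome 18 was followed through 53 of its genes, 17 on the short arm from SMCHD1 to CEP192 and 36 on the long arm from ROCK1 to ADNP2. The genes came from a list of symbols, and every one of them was found among the 43424 symbols of the count files. They had been selected on their fold change between the groups in these same libraries, so these fold changes are given as descriptions, with no test of them. The question put to them was whether the change was even along the chromosome. A list of this kind can show how much its own members vary, and the other 122 measured genes of chromosome 18, which the list left out, are set beside it.

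The cells were labelled as HL-60, a human acute myeloid leukemia line of promyelocyte type, with the genotype given as WT in both groups. One group had grown for 6 months with CIP, an extract of Corydalis incisa (Thunb.) Pers. raised from 2 to 20 µg/ml, and is described as resistant to it. The other had grown for the same 6 months with DMSO, the solvent, and both were kept in RPMI-1640 medium. Each group gave 3 libraries of transcript 3' ends (QuantSeq). The labels do not say that the 3 came from separate cultures, so the spread between them may be technical. Both groups carry the label of the same established line, and whether they were the same line or stock was not tested. The comparison holds for these cultures.

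A cell with an extra chromosome makes more RNA from most genes on it, roughly in step with the number of copies, while single genes depart from this through their own regulation. Copy number therefore tends to leave a shift of similar size in many neighbouring genes of unrelated function, and it can differ between the arms where only part of a chromosome is gained or lost. Gains of chromosome 18 are among the changes described in HL-60 karyotypes, which vary between stocks of the line. DNA was not measured here, so the number of copies and the RNA made per copy cannot be told apart, and neither can fewer cells of a type and less RNA per cell.

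The 6 libraries held 8143657 to 10868396 counts, and 12844 genes passed the filter on low counts. Values are CPM, the count of a gene scaled to the TMM-adjusted size of its library, log2 fold changes are CIP-labelled over DMSO-labelled with their standard error (SE), and a gene is called at an edgeR adjusted p under 0.05. Calls were frequent, since 73.1% of all tested genes were called, 34.9% higher and 38.2% lower in the CIP-labelled libraries. The markers of the line did not hold in both groups. MPO, the peroxidase of promyelocyte granules, had 8667 ± 282 CPM under the CIP label and 1.12 ± 0.324 CPM under the DMSO label (mean ± SD, n = 3 libraries each). MYC, which HL-60 carries in extra copies, stood at 280 ± 52.2 and 41.8 ± 3.9 CPM. Other granule and myeloid genes were measured in both groups, ELANE at 332 ± 32.9 and 591 ± 48.6 CPM, PRTN3 at 425 ± 70.4 and 286 ± 18.8, CTSG at 95.2 ± 4.77 and 653 ± 28.1, AZU1 at 25.2 ± 4.85 and 44.1 ± 5.84 and CD33 at 90.7 ± 5.26 and 65.6 ± 7.61. For this reason each group is called by its label, CIP or DMSO. The summed CPM of 7 T, B and NK cell markers ran from 3.72 to 4.62 under the CIP label and from 87.3 to 108 under the DMSO label, with MS4A1 at 0 in all 6. Of these 7 markers, 3 were at 0 in every DMSO-labelled library and 1 in every CIP-labelled one. The higher sum under the DMSO label thus came from only part of the list. For 4 monocyte markers, 1 of them at 0 in every DMSO-labelled library, the sums were 1.15 to 2.62 and 31.3 to 33.8. For 9 fibroblast, epithelial and endothelial markers they were 62 to 142 and 177 to 287. The erythroid marker HBG1 was at 0 in all libraries, and 3 megakaryocyte markers summed to 2.11 to 3.46 and 0 CPM, with PF4 and GP9 at 0 in all. The part of these differences in the values below was not tested.

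Most of the 53 genes were about 2-fold higher in the CIP-labelled libraries, on both arms. Their median log2 fold change was 1.12, which is 2.18-fold, with quartiles of 0.88 and 1.33. The median was 1.08 (2.11-fold) over the 17 short-arm genes and 1.14 (2.2-fold) over the 36 long-arm genes. The interquartile range was 0.85 on the short arm and 0.34 on the long arm. Within the list, the order of the arms depended on the genes kept, while over all tested genes the short arm was lower (0.80 against 1.07). Over the listed genes that overlap no other gene the medians were 0.73 (7 short-arm genes) and 1.10 (20 long-arm genes, interquartile range 0.25), and at a mean of 10 CPM or more the short-arm median was the higher by 0.12. Of the 53, 49 were called higher, 1 was called lower and 3 were not called. All CIP-labelled libraries lay above all DMSO-labelled ones for 50 genes, against 36.1% of all tested genes, and below them for 1, against 39.3%. In 75.5% of all tested genes the groups did not overlap. Since the list was drawn with these values known, nothing is read from those counts. The gene lower in the CIP-labelled libraries was TWSG1, and TWSG1, ZBTB14 and IMPA2 on the short arm and SMAD7 on the long arm were the 4 genes not called higher.

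**Figure D1:**
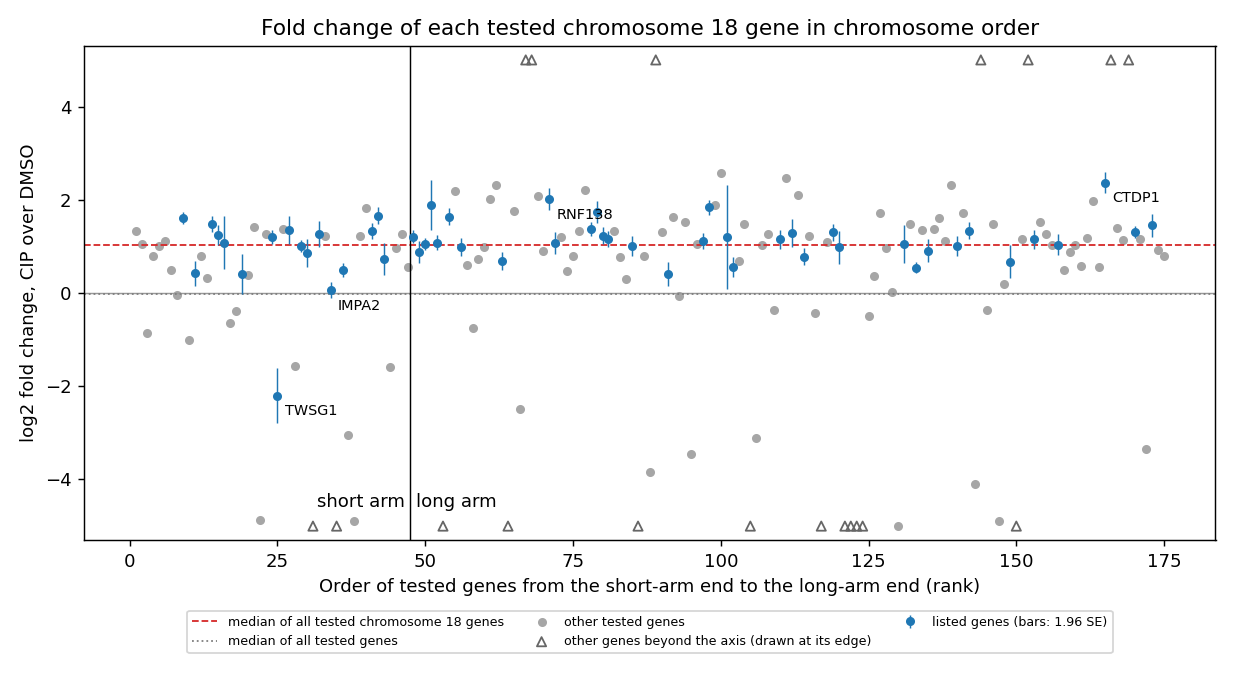
Log2 fold change (CIP-labelled over DMSO-labelled) of every tested chromosome 18 gene in chromosome order, with the 53 listed genes marked and bars of 1.96 SE on them. The listed genes lie around 1.12 on both arms, TWSG1 at -2.20 is the only one of them below 0, and unlisted genes scatter from -10.66 to 11.44, those beyond the axis being drawn at its edge as triangles.

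The level of the 53 genes was similar in the 3 libraries of a group. With each library set against the mean of the DMSO-labelled libraries, the median over the 53 genes was 1.09, 1.14 and 1.07 on the log2 scale (pseudocount 0.5 CPM) in the CIP-labelled libraries 1 to 3. In the DMSO-labelled libraries it was 0.02, -0.01 and -0.00. The listed short-arm genes gave 1.00, 1.16 and 0.97 and the listed long-arm genes 1.09, 1.13 and 1.12 in the CIP-labelled libraries. The arms of the list thus kept no fixed order. Over all tested genes the short arm (47 genes) was the lower in each of these libraries. It gave 0.86, 0.81 and 0.82, against 1.06, 1.07 and 1.06 for the long arm (128 genes). The 175 tested genes of the chromosome gave 1.00, 1.01 and 1.00, and all 12844 tested genes gave -0.03 in each of the 3. The 781 symbols placed on chromosome 18 took 1.16%, 1.19% and 1.19% of the counts of CIP 1 to 3 and 0.685%, 0.669% and 0.662% of those of DMSO 1 to 3. With 3 libraries against 3, an exact permutation test of any one of these levels could not go below p = 0.1, and none is given.

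**Figure D2:**
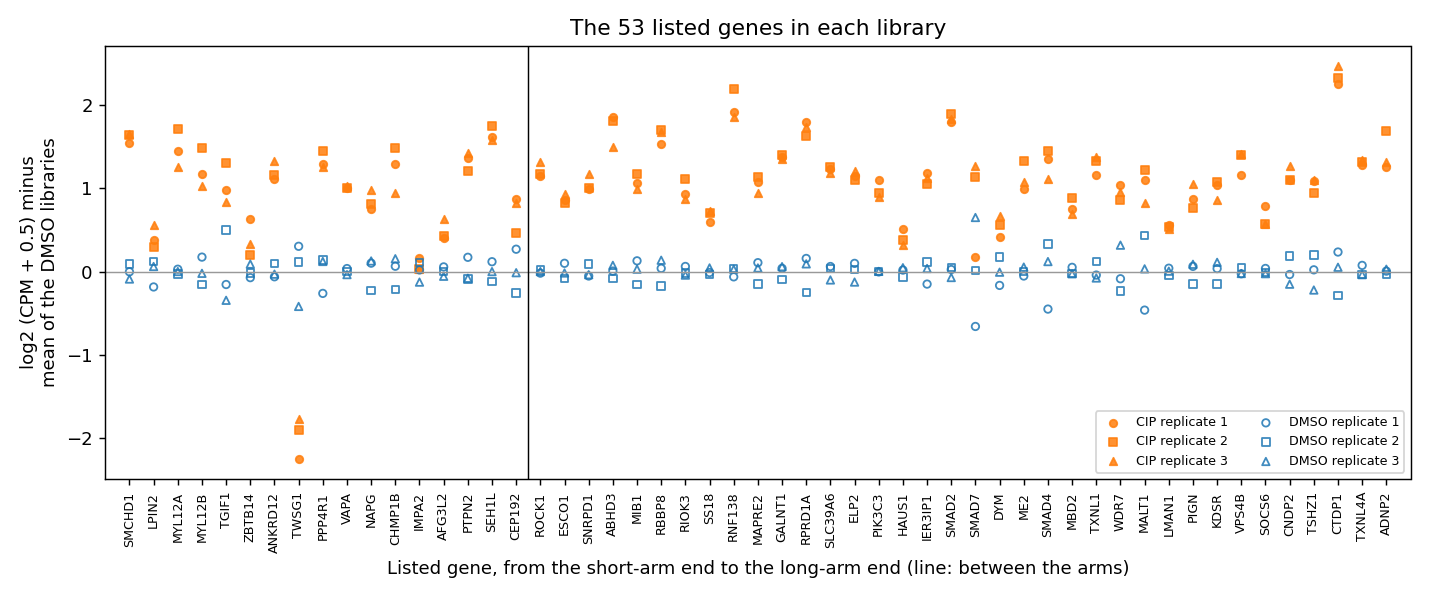
Level of each of the 53 genes in each library, as log2(CPM + 0.5) minus the mean of the DMSO-labelled libraries, with genes in chromosome order. The 3 CIP-labelled libraries lie above the DMSO-labelled ones in nearly every gene of both arms, and TWSG1 shows the opposite order.

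The change was not the same size in every gene. Had all 53 shared 1 fold change, intervals of 1.96 SE around each value would hold it for about 95% of them, if the SE covers the error. The intervals of 26 genes (49.1%) held the genes' own median, against 24.1% for all tested genes and their median. Against the median of all 175 tested genes of the chromosome, 1.04, 23 intervals held it, 19 lay above it and 11 below it. Of the 53, 38 (71.7%) lay within 0.5 of their median and 27 had a log2 fold change between 1 and 1.5. The share within 0.5 of their own median was 41.8% over the unlisted genes of the chromosome, 34.6% over all tested genes and 44% over those with a mean of at least 10 CPM. As the 53 were selected on these values, their higher share is a description of the list. The list showed little steady trend in fold change from end to end of the chromosome, a measure that does not show steps between segments. Spearman's rho between start and log2 fold change was 0.07 over the 53 genes, -0.08 over the 17 short-arm genes and -0.04 over the 36 long-arm genes, given as descriptions since the points share libraries and neighbours. The rho between mean level and log2 fold change was 0.28 over the 53 and 0.47 over the short-arm genes.

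Neighbouring genes could differ more than the arms did. SLC39A6 and ELP2, which start 559 bases apart on opposite strands, had log2 fold changes of 1.23 ± 0.09 and 1.16 ± 0.09 (SE). SEH1L and CEP192, 3.83 kb apart, had 1.66 ± 0.09 and 0.73 ± 0.17. ABHD3 and MIB1, 0.142 kb apart, had 1.89 ± 0.27 and 1.08 ± 0.08. The widest step between neighbours of the list was at TWSG1, which lies 48.8 kb beyond ANKRD12 and 144 kb before PPP4R1. These neighbours had 1.20 ± 0.08 and 1.35 ± 0.15. One gene was thus lower where the listed genes on both sides of it were higher.

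The promoters of these 3 listed neighbours and of the divergent pair are printed because they stand where the fold changes break and where they match. Each run is 300 bases, 250 before to 50 after a start site, read 5' to 3' on the gene's strand from RefSeq (GRCh38.p14), with every CG dinucleotide in capitals. A gene can have several windows, and 1 is shown for each. The start sites shown for ANKRD12 (9137563) and PPP4R1 (9614559) lie inside the annotated genes, which begin at 9136781 and, on the minus strand, at 9617199. Which start sites these cells used was not tested. ANKRD12 is at chr18:9137313-9137612 (plus strand), TWSG1 at chr18:9334523-9334822 (plus), PPP4R1 at chr18:9614510-9614809 (minus), SLC39A6 at chr18:36129291-36129590 (minus) and ELP2 at chr18:36129649-36129948 (plus).
ANKRD12: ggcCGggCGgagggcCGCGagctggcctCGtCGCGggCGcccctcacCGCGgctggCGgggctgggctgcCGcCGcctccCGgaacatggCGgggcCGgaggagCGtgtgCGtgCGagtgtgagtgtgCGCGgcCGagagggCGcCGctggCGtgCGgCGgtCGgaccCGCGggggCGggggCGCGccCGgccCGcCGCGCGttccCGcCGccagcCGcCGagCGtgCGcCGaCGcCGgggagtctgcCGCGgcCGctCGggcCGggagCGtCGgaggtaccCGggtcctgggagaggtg
TWSG1: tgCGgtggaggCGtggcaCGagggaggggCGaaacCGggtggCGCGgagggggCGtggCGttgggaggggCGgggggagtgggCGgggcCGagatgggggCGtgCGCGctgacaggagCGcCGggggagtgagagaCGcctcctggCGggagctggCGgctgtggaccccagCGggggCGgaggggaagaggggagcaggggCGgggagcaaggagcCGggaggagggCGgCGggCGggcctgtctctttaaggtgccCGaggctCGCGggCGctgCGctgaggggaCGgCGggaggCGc
PPP4R1: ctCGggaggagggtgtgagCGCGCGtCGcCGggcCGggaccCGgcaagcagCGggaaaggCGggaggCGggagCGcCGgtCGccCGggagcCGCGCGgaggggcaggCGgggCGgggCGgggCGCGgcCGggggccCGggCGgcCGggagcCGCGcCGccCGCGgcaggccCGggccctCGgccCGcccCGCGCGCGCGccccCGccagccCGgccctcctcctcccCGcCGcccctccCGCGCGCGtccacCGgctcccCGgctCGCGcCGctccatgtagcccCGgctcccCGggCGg
SLC39A6: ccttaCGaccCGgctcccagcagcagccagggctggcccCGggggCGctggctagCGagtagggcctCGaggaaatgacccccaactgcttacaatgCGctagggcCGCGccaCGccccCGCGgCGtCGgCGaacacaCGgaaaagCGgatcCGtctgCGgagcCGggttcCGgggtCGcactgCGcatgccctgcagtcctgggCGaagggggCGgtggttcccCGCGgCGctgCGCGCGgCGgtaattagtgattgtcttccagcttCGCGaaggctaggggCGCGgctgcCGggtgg
ELP2: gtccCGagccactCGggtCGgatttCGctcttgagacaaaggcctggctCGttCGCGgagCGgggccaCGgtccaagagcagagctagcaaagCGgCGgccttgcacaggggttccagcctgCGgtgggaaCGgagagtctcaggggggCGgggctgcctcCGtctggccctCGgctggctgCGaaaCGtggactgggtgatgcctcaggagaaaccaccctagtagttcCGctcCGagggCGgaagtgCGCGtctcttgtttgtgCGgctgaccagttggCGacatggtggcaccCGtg
These windows hold 55 (ANKRD12), 35 (TWSG1), 56 (PPP4R1), 37 (SLC39A6) and 26 (ELP2) CG dinucleotides. Over all 35116 promoter windows in the table the median was 14, with quartiles of 4 and 28. The 46 listed genes with a window had 73 windows, some of them overlapping, with a median of 28 and quartiles of 20 and 37. The window of TWSG1, the one listed gene lower in the CIP-labelled libraries, lay above the median of the list. Methylation was not measured.

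The list holds genes of unrelated function, and the groups made from their roles had medians between 0.88 and 1.23. Of all tested genes 34.9% were called higher, and of those on chromosome 18, listed genes included, 70.3%. As the list was selected on these values, the counts of calls by role describe it, and nothing is read from them about the roles. The 9 genes of chromatin and transcription ran from 0.41 to 2.37 with a median of 1.20, and 8 were called higher. SMCHD1 (chromosome 18, 2.7 Mb), which keeps the inactive X chromosome silent, stood at 248, 266 and 268 CPM in the CIP-labelled and 85.1, 90.9 and 80.1 CPM in the DMSO-labelled libraries. The groups did not overlap, and the fold was 3.05 (log2 1.61 ± 0.07). CTDP1, the phosphatase that recycles RNA polymerase II (79676768 to 79756625, near the end of the long arm), stood at 74, 78.1 and 86.5 CPM and 18, 12.4 and 15.8 CPM. Every CIP-labelled library was far above every DMSO-labelled one, and its fold of 5.17 (log2 2.37 ± 0.12) was the largest of the 53. CTDP1 overlaps the annotated transcript CTDP1-DT, so their reads may not be separated. RPRD1A, a regulator of the polymerase tail, had 1.73 ± 0.12 and ADNP2, a zinc finger protein beside the long-arm end, 1.45 ± 0.13. ANKRD12 with 1.20 ± 0.08, the homeobox gene TSHZ1 with 1.04 ± 0.12, the methyl-CpG reader MBD2 with 0.78 ± 0.09 and SS18, a subunit of the BAF remodelling complex, with 0.68 ± 0.10 lay lower. ZBTB14, a zinc finger repressor, stood at 13, 9.5 and 10.5 CPM and 7.81, 8.14 and 8.8 CPM. Its groups did not overlap, but the difference was small (0.41 ± 0.22) and it was not called.

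All 5 genes of DNA repair and cell division were called higher, from 0.41 to 1.64 with a median of 0.88. RBBP8, which encodes the end-resection factor CtIP, stood at 124, 140 and 137 CPM and 43.9, 37.8 and 47 CPM. The groups were well apart, at a fold of 3.12 (log2 1.64 ± 0.09). HAUS1, a subunit of the augmin complex that nucleates spindle microtubules, stood at 35, 32 and 30.6 CPM and 24.8, 23.4 and 25.3 CPM. Its libraries did not overlap either, but the fold was 1.33 (log2 0.41 ± 0.13), and 0.18 when scaled by library totals alone, where it was no longer called. The cohesin acetyltransferase ESCO1 had 0.88 ± 0.12, the centrosome protein CEP192 0.73 ± 0.17 and the microtubule end-binding gene MAPRE2 1.07 ± 0.12.

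The 4 genes of RNA processing and the nuclear pore were all called higher, between 1.05 and 1.66. SNRPD1, a core protein of the spliceosomal snRNPs, stood at 747, 752 and 851 CPM and 363, 401 and 367 CPM. The lowest CIP-labelled library was well above the highest DMSO-labelled one, at a fold of 2.08 (log2 1.05 ± 0.07). TXNL4A, a spliceosome component, stood at 341, 351 and 356 CPM and 148, 137 and 137 CPM, with little spread within either group (log2 1.31 ± 0.07). It overlaps HSBP1L1. The tRNA-modifying Elongator subunit ELP2 had 1.16 ± 0.09, and SEH1L, a nucleoporin, stood at 121, 133 and 118 CPM and 42.6, 36.1 and 39.2 CPM, a fold of 3.16.

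The 5 genes of TGF-beta and BMP signalling, in which receptors phosphorylate SMAD proteins that then act in the nucleus, were the least even group, from -2.20 to 1.84. SMAD2 (47808957 to 47930872), a receptor-activated SMAD, stood at 190, 203 and 195 CPM and 55.6, 56.5 and 52 CPM. The groups were far apart, at a fold of 3.58 (log2 1.84 ± 0.08). SMAD4 (51030213 to 51085042), the partner shared by all receptor-activated SMADs, stood at 53.3, 57.2 and 45 CPM and 15, 26.1 and 22.5 CPM, with no overlap and a fold of 2.44 (1.29 ± 0.15). TWSG1 (9334773 to 9402420), a secreted modulator of BMP ligands, stood at 1.73, 2.35 and 2.62 CPM and 12.6, 11 and 7.45 CPM. These are 15, 23 and 26 counts against 127, 115 and 66, and all 3 CIP-labelled libraries were below every DMSO-labelled one, 4.6-fold in the fit (log2 -2.20 ± 0.30). The corepressor TGIF1 stood at 7.5, 9.5 and 6.74 CPM and 3.16, 5.26 and 2.71 CPM (1.08 ± 0.29). SMAD7, the inhibitory SMAD, had 8, 22 and 25 counts against 3, 8 and 13, or 0.923 to 2.52 CPM against 0.297 to 1.47. Its groups overlapped, and a difference of 1.20 ± 0.57 was not resolved at this depth, although it was called when CIP-labelled library 1 (1.52) or DMSO-labelled library 3 (1.80) was left out.

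All 9 genes of membrane traffic were called higher, from 0.54 to 1.34 with a median of 1.00. VAPA, which anchors endoplasmic reticulum contact sites, stood at 239, 238 and 242 CPM and 122, 119 and 116 CPM. Both groups were tight, and the fold was 2.01 (log2 1.01 ± 0.07). PIK3C3, the lipid kinase of autophagy and endosomes, stood at 52.7, 47.1 and 45.7 CPM and 24.2, 24.3 and 24.3 CPM, a fold of 2. LMAN1, a cargo receptor for secreted glycoproteins, stood at 472, 466 and 459 CPM and 330, 311 and 322 CPM. Its groups were as tight and did not overlap, but the fold was 1.45 (log2 0.54 ± 0.06), so the interval of LMAN1 lay below that of VAPA. Of the genes that remodel endosomes, VPS4B had 1.34 ± 0.09 and CHMP1B 1.27 ± 0.14. The vesicle fusion gene NAPG had 0.86 ± 0.15, and IER3IP1, DYM and WDR7, of the endoplasmic reticulum, Golgi and acidic vesicles, had 1.12 ± 0.09, 0.55 ± 0.11 and 0.98 ± 0.18.

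Of the 11 genes of metabolism, transport and protein folding, 10 were called higher, at a median of 1.15. ME2, the mitochondrial malic enzyme, stood at 76.9, 97.5 and 81.5 CPM and 37.2, 38.6 and 40.1 CPM. The groups did not overlap, at a fold of 2.21 (log2 1.15 ± 0.10). GALNT1, which starts mucin-type O-glycans, stood at 173, 176 and 170 CPM and 68.4, 62.2 and 69.4 CPM (1.37 ± 0.08). ABHD3, a lipase of phospholipids, stood at 11.3, 10.9 and 8.66 CPM and 2.77, 2.58 and 2.93 CPM. Its fold of 3.72 rests on low counts and carries a larger error (1.89 ± 0.27). The zinc importer SLC39A6 had 1.23 ± 0.09, the thioredoxin-like TXNL1 1.30 ± 0.09, the dipeptidase CNDP2 1.15 ± 0.10, the sphingolipid reductase KDSR 1.00 ± 0.11 and PIGN, of the GPI anchor pathway, 0.91 ± 0.13. Among these 11 genes, the smallest changes were those of short-arm genes. AFG3L2, a protease of the inner mitochondrial membrane, stood at 134, 136 and 156 CPM and 105, 101 and 97.1 CPM, a fold of 1.4 (0.49 ± 0.08). It overlaps TUBB6, which was far lower in the CIP-labelled libraries, and their reads may not be separated. LPIN2, a phosphatidate phosphatase, stood at 27.5, 25.9 and 31 CPM and 18.4, 22.9 and 21.9 CPM (0.42 ± 0.14). It was not called with library totals alone (0.19) or without DMSO-labelled library 1 (0.32). IMPA2, an inositol monophosphatase, stood at 86.9, 79 and 79.2 CPM and 78.4, 83.3 and 70.8 CPM. Its groups overlapped, its log2 fold change was 0.07 ± 0.09, and scaling by library totals alone turned the sign (-0.15). The interval of IMPA2, taken as 1.96 SE, excluded a 2-fold difference.

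The last 10 genes, of actomyosin, phosphatases, kinases and ubiquitin ligases, were all called higher, from 0.67 to 2.02. ROCK1, the kinase that drives actomyosin contraction and the first gene of the long arm, stood at 340, 347 and 382 CPM and 152, 156 and 154 CPM. The groups were far apart for their spread (fold 2.31, log2 1.21 ± 0.07). The myosin regulatory light chains MYL12A and MYL12B, 5.9 kb apart, stood at 235 to 321 against 96.1 to 100 CPM and at 140 to 192 against 61.5 to 77.2 CPM. They are near-identical and overlap MYL12-AS1, so the split of reads between them is uncertain. RNF138, a ubiquitin ligase of DNA repair, stood at 66.1, 79.7 and 63 CPM and 16.4, 17.6 and 17.5 CPM. No library of one group came near the other, and the fold was 4.05 (log2 2.02 ± 0.12). PTPN2, a phosphatase that restrains JAK-STAT signalling, stood at 101, 90.6 and 105 CPM and 44, 36.6 and 36.9 CPM (1.33 ± 0.09). MALT1, the protease of NF-kappaB activation, stood at 17.3, 18.8 and 14.2 CPM and 5.54, 10.7 and 8.01 CPM, with no overlap (1.05 ± 0.21). The phosphatase subunit PPP4R1 had 1.35 ± 0.15, the Notch-pathway ligase MIB1 1.08 ± 0.08, the atypical kinase RIOK3 0.98 ± 0.10 and SOCS6, a suppressor of cytokine signalling, 0.67 ± 0.18.

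The unlisted genes of the chromosome shared the shift in part and with a wider scatter. Of the 122, 74 were called higher and 30 lower, with a median log2 fold change of 0.97 and an interquartile range of 1.80. The scatter was wider in genes of low level. Over the 125 chromosome 18 genes with a mean of at least 10 CPM over all 6 libraries, listed or not, 107 (85.6%) were called higher and 11 (8.8%) lower, with a median of 1.12. Over all tested genes of that level, 42.6% were called higher and 34.1% lower. The 50 genes with a mean below that level over all 6 libraries had a median of 0.37 and an interquartile range of 4.93. Genes of that low level off chromosome 18 (4625) had a median of -0.59 and a range of 3.20. Unlisted short-arm genes of at least 10 CPM (20) had a median of 0.99 and an interquartile range of 1.39, and unlisted long-arm ones (57) a median of 1.16 and a range of 0.80. The lower median of the whole short arm, 0.80 over 47 genes against 1.07 over 128 on the long arm, was 1.03 against 1.15 at 10 CPM or more.

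The most changed unlisted genes went both ways. CYB5A, which encodes cytochrome b5, averaged 35.9 ± 7.52 CPM with CIP and had 0 counts in every DMSO-labelled library, at least 352-fold higher against 3 counts over the group. B4GALT6, a glycolipid galactosyltransferase, had 438 counts against 1, a ratio of 454 (exact 95% counting interval 81.1 to 17975). PSTPIP2 and the desmosomal cadherin DSG2 were also higher, at 54.1 ± 2.69 against 0.452 ± 0.2 CPM and 22.6 ± 1.85 against 0.212 ± 0.185 CPM. PSMA8, a proteasome subunit of the testis, was at 0 counts against 21 ± 1.38 CPM, at least 199-fold lower. TUBB6, a tubulin that overlaps AFG3L2, was at 0.313 ± 0.0861 against 79.8 ± 5.99 CPM, ACAA2, of fatty acid oxidation, at 0.154 ± 0.267 against 29.5 ± 2.32, and the homeobox gene ONECUT2 at 0.306 ± 0.369 against 61.1 ± 5.5. These 8 were far outside the range of the 53. GNAL, chosen after its values were seen because CHMP1B lies inside it, was at 0 counts against 6.51 ± 1.45 CPM, while CHMP1B stood at 42.9, 49.3 and 33.8 against 18.1, 14.8 and 19.3 CPM. A gene and the gene around it thus differed in opposite directions. NDC80 (-0.04 ± 0.10) and EPB41L3 (0.39 ± 0.21), unlisted short-arm genes chosen in the same way, were not called.

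**Figure D3:**
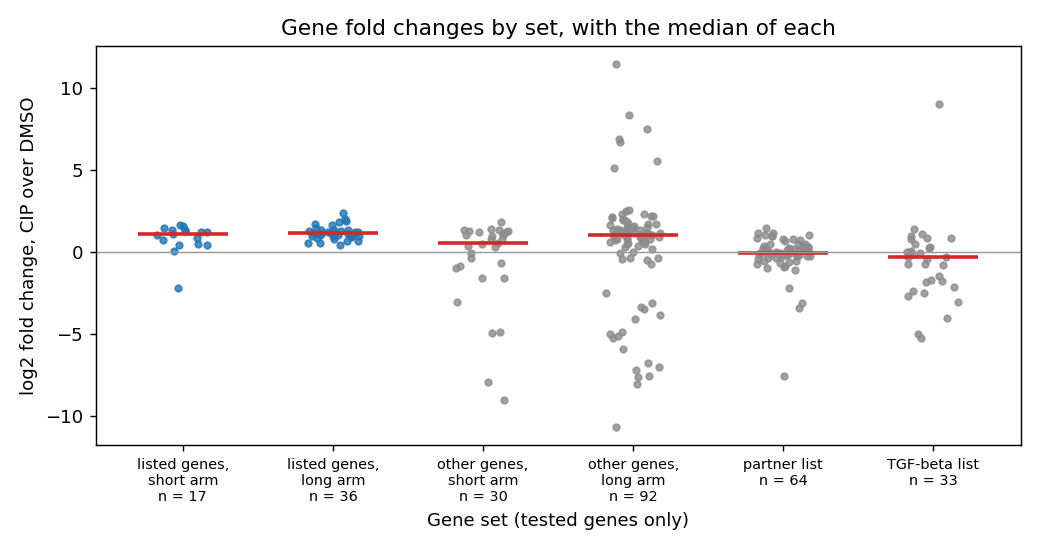
Log2 fold change of the listed and unlisted chromosome 18 genes by arm, and of the partner and TGF-beta lists, with points for tested genes and lines for medians. The listed genes cluster around 1.08 (short arm) and 1.14 (long arm), the unlisted genes scatter widely, and the partner list is centred at -0.03 and the TGF-beta list at -0.33.

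Chromosome 18 stood at the upper end among 23 chromosomes (1 to 22 and X). Its median of 1.04 over 175 genes was the highest, followed by chromosome 11 at 0.43, chromosome 22 at 0.38 and chromosome 4 at 0.37. It also had the largest share called higher, 70.3%, ahead of chromosome 22 with 52.8%. Over its 122 unlisted genes alone the median was 0.97 and the share called higher 60.7%. Its interquartile range, 0.97 with the listed genes, was 1.80 over the unlisted ones, against 1.20 to 1.62 on the other chromosomes. At 10 CPM or more, listed genes included, it was 0.64, the narrowest of the 23. The unlisted genes are what the selection by fold change left, which can widen their range, while the other chromosomes are whole. No evenness is therefore read from these ranges. In 7 consecutive windows of 25 tested genes, the median was 0.79 (USP14 to TWSG1), 0.96 (up to SNRPD1), 1.07 (ABHD3 to ZNF271P), 1.23 (from ZNF24), 0.78 (SMAD7 to FECH), 1.00 (NARS1 to FBXO15) and 1.15 (from TIMM21). The windows included the listed genes, 5 to 12 in each. All 7 lay above the median of all tested genes, -0.03. Of 491 windows elsewhere in the genome, 13 had a median at or above the lowest of the 7.

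**Figure D4:**
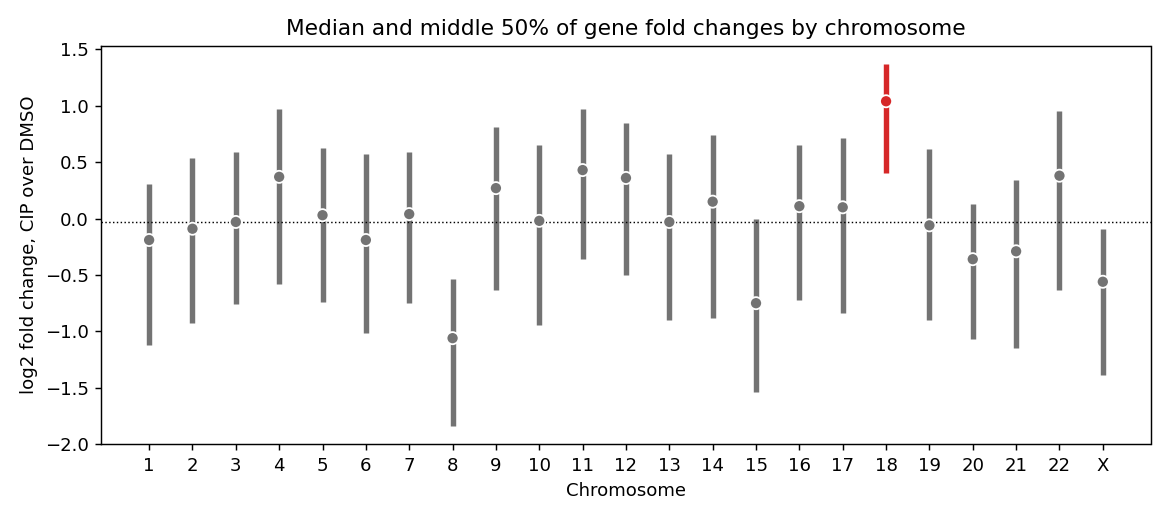
Median log2 fold change per chromosome with the interquartile range over its tested genes. Chromosome 18, with its 53 listed genes included, has the highest median, 1.04, and chromosome 8 the lowest, -1.06.

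Relatives of the listed genes, nearly all of them on other chromosomes, were centred near 0. A list of 71 paralogues and complex partners, 64 of them tested and 63 of these on other chromosomes, had 23 called higher, 19 lower and 22 not called, with a median of -0.03. That is 35.9% higher and 29.7% lower, beside 34.9% and 38.2% of all tested genes, whose median was also -0.03. ROCK2, the paralogue of ROCK1, stood at 62.7 ± 6.59 against 119 ± 7.09 CPM (-0.92 ± 0.09), and LPIN1, a paralogue of LPIN2, fell from 70.3 ± 7.63 to 15.5 ± 0.879 CPM (-2.19 ± 0.12). SNRPD2 and SNRPD3, which sit in the same ring as SNRPD1, had 0.27 ± 0.06 and 0.34 ± 0.06 beside its 1.05. In the same ring, SNRPF had 0.96 ± 0.08, SNRPE 0.16 ± 0.08, SNRPG 0.13 ± 0.07 and SNRPB -0.55 ± 0.06. PIK3R4 and BECN1, partners of PIK3C3, had 0.83 ± 0.23 and 0.78 ± 0.10 beside its 1.00. VPS4A had 0.74 ± 0.12 beside 1.34 for VPS4B, and VAPB -0.06 ± 0.12 beside 1.01 for VAPA. Except for LPIN1, these relatives were chosen after their values were seen. By size of change, the list was led by CARD9 (1.45 ± 0.11) and BCL10 (1.15 ± 0.21), which act in the same signalling route as MALT1, RIOK1 (1.14 ± 0.09) and UVRAG (1.02 ± 0.10), a partner of PIK3C3. On the lower side were TSHZ3 (-3.43 ± 0.33), LPIN1, the Elongator subunit ELP3 (-1.10 ± 0.16) and NAPB (8.75 ± 0.835 against 17.5 ± 2.93 CPM). MBD1, the tested partner that lies on chromosome 18, had 1.02 ± 0.11.

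Genes of the TGF-beta pathway outside the list were called in both directions, as were tested genes in general. Of 38 listed genes, 33 were tested, 9 were called higher, 16 lower and 8 not called, with a median of -0.33. That is 27.3% higher and 48.5% lower, beside 34.9% and 38.2% of all tested genes. Among receptors, the called ones were TGFBR2 at 24 ± 3.14 against 12.1 ± 1.07 CPM (0.99 ± 0.16) and ACVR1B at 30.5 ± 4.31 against 14.4 ± 3.81 (1.08 ± 0.16) on the higher side. On the lower side were TGFBR1, at 47.9 ± 1.55 against 168 ± 7.04 CPM (-1.81 ± 0.08), BMPR2 (-1.74 ± 0.23), the co-receptor TGFBR3 (-1.46 ± 0.30) and ACVR1, at 0.101 ± 0.101 against 4.39 ± 0.806 CPM. ENG, ACVR2B and BMPR1A were not called. All receptors except TGFBR2 and ACVR1B were named after their values were seen. Among SMADs, SMAD3, the closest relative of SMAD2, fell from 119 ± 7.03 to 18.4 ± 1.29 CPM (-2.69 ± 0.10). SMAD1, which answers to BMP receptors, had 687 counts against 1, a ratio of 712 (exact 95% counting interval 127 to 28170). The phosphatase PPM1A, which acts on SMAD2 and SMAD3, was higher (1.40 ± 0.15). LTBP1, which holds latent TGF-beta in the matrix, and the pathway inhibitor PMEPA1 were lower, at 0.856 ± 0.745 against 14.1 ± 3.03 CPM and 0.6 ± 0.459 against 5.04 ± 0.563 CPM. NEDD4L, a ubiquitin ligase for SMAD2 that is itself on the long arm of chromosome 18, was at 0.274 ± 0.203 against 9.42 ± 0.671 CPM, against the direction of its chromosome.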

How the data were processed

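Gene expression was measured in 3 CIP-labelled and 3 DMSO-labelled libraries, grouped by their titles. The values are raw read counts per gene symbol, which the authors deposited as a separate file for each library, per the file headers. Per the submitters' processing notes, GRCh38, STAR, HTSeq, fastp and bcl2fastq 2.20.0.422 were used, without stated roles, with annotation and strand setting not given in the sources used here. QuantSeq libraries count transcript ends, so overlapping genes (26 of the 53 overlap another RefSeq gene) and near-identical copies cannot be fully separated. Positions came from RefSeq GRCh38.p14, matched by symbol for 42739 of 43424 symbols, and the arms were split at the gap between ZNF519 (ends at 14132435) and ROCK1 (starts at 20946906).

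Counts were fitted over all 12844 genes kept by filterByExpr, with TMM scaling and group alone, by edgeR 4.0.16 (robust quasi-likelihood test, 2-sided, R 4.3.3) and Benjamini-Hochberg adjustment, and the steps were tested on simulated data. Of each library, 3 counts are 0.287 to 0.346 CPM, and over a group 0.106 (CIP) or 0.102 CPM (DMSO). Intervals on counts cover counting error only. Pairs of libraries within a group gave a chi-square per gene of 3.82 to 7.66, above sampling noise. Named are all 53 genes, of other chromosome 18 genes the 4 called per direction with the largest change, a mean of 10 CPM or more in the higher group and no overlap between groups (locus-number symbols left out), up to 4 called per direction and list at 5 CPM or more, and 7 genes that check the line. The genes, roles and lists were chosen with earlier results of these data known. Alternatives were RLE, upper-quartile and library-total scaling, no filter, 1 CPM in 3 libraries, DESeq2 1.42.0, limma-voom (limma 3.58.1), a replicate block, each library left out, genes overlapping no other, and genes with a mean over all libraries of 10 CPM or more. Some genes are not reported here.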

Additional observations from a re-analysis of the deposited data

How the results depend on the processing

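The direction of all 53 genes was kept under every scaling, filter, tool and left-out library except that of IMPA2, which was -0.15 with library totals alone. The same 50 genes were called under these alternatives, apart from 48 of them with library totals alone and 49 without DMSO-labelled library 1. ZBTB14 was called without CIP-labelled library 2 (0.52). Library totals alone lowered the median of all genes from -0.03 to -0.26 and that of chromosome 18 to 0.82, and 3459 genes were then called higher and 5913 lower (63.1% lower, against 52.3%). The gap between these medians was 1.08 there and 1.01 to 1.10 over all alternatives. Medians of the long-arm listed genes were 1.11 (RLE), 1.09 (upper-quartile), 0.91 (library totals), 1.11 (DESeq2) and 1.10 both without overlapping genes and at 10 CPM or more, and those of the short-arm listed genes 0.86 (library totals), 0.73 (no overlap) and 1.22 (10 CPM). For the listed genes, the short-arm median minus the long-arm median, -0.05, was -0.37 over those that overlap no other and 0.12 at 10 CPM or more. Which arm of the list was higher thus depended on the genes kept. The short arm had the lower median over all tested genes, 0.80 against 1.07, and also at 10 CPM or more, 1.03 against 1.15. Over all tested genes the short arm gave 0.75 (upper-quartile), 0.57 (library totals), 0.38 (no filter), 0.41 (no overlap) and 1.03 (10 CPM), and the long arm 1.05 (RLE and DESeq2), 1.03 (upper-quartile), 0.84 (library totals), 0.98 (no filter), 1.14 (no overlap) and 1.15 (10 CPM). The interquartile range of the chromosome was 3.35 with no filter and 0.64 at 10 CPM or more. The cause of these shifts was not tested, except that the filters change which genes enter. With single libraries left out, the medians ran from 0.98 to 1.15 (short-arm listed genes), 1.10 to 1.15 (long-arm listed genes), 0.69 to 0.83 (all short-arm genes) and 1.04 to 1.10 (all long-arm genes), and the interquartile ranges from 0.40 to 0.56 (listed genes) and 1.05 to 1.31 (chromosome). Libraries of the same number did not deviate together (correlations of -0.019, -0.027 and -0.01). This showed no pairing by number, but it cannot exclude that libraries were handled in pairs. With the replicate number as a block 9061 genes were called, the same 50 listed genes among them. Low counts leave TWSG1, TGIF1, ABHD3 and SMAD7 with larger errors (SE of 0.30, 0.29, 0.27 and 0.57) than the median of the listed genes, 0.11.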

Other observations

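Outside chromosome 18, the windows of 25 genes with the highest medians were 2 neighbouring stretches of zinc finger genes on chromosome 19, from ZSCAN5A to ZNF17 (2.30) and from ZNF749 to ZNF606-AS1 (2.14). The chromosome with the lowest median was chromosome 8 (-1.06), followed by chromosome 15 (-0.75) and X (-0.56).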
